A study of Homo sapiens with 4 samples.

Results

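The genes described here are 36 regulators of the cell division cycle: cyclins, cyclin-dependent kinases (CDKs), CDK inhibitors, the retinoblastoma (RB) family, the E2F transcription factors and 3 regulators that act on them, SKP2, CKS1B and CDC25A. They were taken from a list of gene names, and all 36 were found among the 57905 genes counted. RNA was sequenced from U87MG, an established human glioblastoma (GBM) line with the genotype labelled wild type and a passage number between 8 and 10. In one group, 2 samples were left untreated (control), and in the other, 2 samples received 50 nM chaetocin dissolved in DMSO for 24 h. Chaetocin is a fungal metabolite known as an inhibitor of the histone methyltransferase SUV39H1, and the study examined it as a compound that makes GBM cells sensitive to apoptosis. No vehicle is mentioned for the control samples, so an effect of chaetocin and an effect of its solvent cannot be told apart. The labels do not state whether the samples of a group came from separate cultures, so p-values measure only the spread between these samples, which may be technical.

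In the textbook view, D-type cyclins activate CDK4 and CDK6, and E-type and A-type cyclins activate CDK2. These kinases phosphorylate RB proteins, which then release E2F factors, and the released E2Fs switch on genes of DNA synthesis together with cyclin E and several E2F genes themselves. INK4 proteins (products of CDKN2A, CDKN2B, CDKN2C and CDKN2D) block CDK4 and CDK6, and Cip/Kip proteins bind cyclin-CDK complexes more widely. The INK4 region on chromosome 9 is often lost in GBM.

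Samples held between 21241984 and 32590479 counted reads. Levels are given as CPM, the count divided by the library size after TMM scaling and multiplied by 1000000, and at these depths 3 reads correspond to 0.0844 to 0.138 CPM. Whether PCR copies of a molecule were removed before counting is not given in the sources used here, and such floors cover counting error only. Of the 13 glioma and astrocyte markers, AQP4 and OLIG1 had no read in any sample and GFAP had 10 to 25 reads, while CD44, VIM and TNC were abundant. The summed level of these markers was 8076 and 6941 CPM in control and 5293 and 3212 CPM in chaetocin, and both chaetocin samples were under both control samples for 7 of the 9 tested, beside 26.0% of all tested genes. Of these, edgeR called CHI3L1 (log2 fold change -1.28) and SLC1A3 (-1.22) lower, beside 0.743% of all tested genes. DESeq2 also called the abundant CD44 (-1.22 in DESeq2) and VIM (-0.82 in DESeq2) lower, beside 2.95%. SLC1A2 went the other way, with 32 and 20 reads in control and 37 and 111 in chaetocin (log2 fold change 1.29, not called). TNC overlapped between the groups. SOX2 and S100B, not tested, had 0 reads in control and 2 to 5 reads in the chaetocin samples. Of the leukocyte markers, CD3E and MS4A1 had no read. The list summed to 22.7 to 27.7 CPM in control and 18.7 to 35.5 CPM in chaetocin. Most of that was CSF1R, at 27.2 and 22.0 CPM in control and 32.7 and 15.1 CPM in chaetocin. CSF1R overlapped between the groups (log2 fold change -0.05). Within the list, edgeR called PTPRC and ITGAM higher, beside 1.11% of all tested genes, and DESeq2 called ITGAM alone, beside 2.36%. PTPRC had 0, 1, 15 and 27 reads in control 1, control 2, chaetocin 1 and chaetocin 2. ITGAM had 0, 1, 24 and 29 reads in the same order. Both passed the filter on low counts used with edgeR only through the chaetocin samples. The 5 epithelial markers reached at most 2.76 CPM in sum, with KRT5 and KRT14 at 0. The endothelial markers that matched summed to 7.54 to 14.3 CPM. KDR made up most of that, at 8.52 and 13.0 CPM in control and 5.28 and 5.46 CPM in chaetocin. DESeq2 called KDR lower (-1.02 in DESeq2), beside 2.95% of all tested genes, and edgeR did not. VWF went the other way, with 14 and 33 reads in control and 42 and 95 in chaetocin (log2 fold change 1.41). Neither edgeR nor DESeq2 called VWF. Whether these markers have a part in the results that follow was not tested.

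In chaetocin-treated cells, 3 of the cell-cycle control genes rose: CCNE1, E2F1 and E2F2, by 1.93-fold to 2.47-fold. None was called lower. CCNE1 encodes cyclin E1, the partner of CDK2 at the entry to S phase, and E2F1 and E2F2 are activator E2Fs. Of the 4 INK4 genes, CDKN2A, CDKN2B and CDKN2C had 0 reads in every sample.

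The test was run over the 16416 genes left by a filter on low counts, with edgeR's quasi-likelihood method and Benjamini-Hochberg adjustment, at a threshold of 0.05. Of the 36 genes, 31 passed that filter. The 5 others were CCND2, CDKN1C, CDKN2A, CDKN2B and CDKN2C. The 3 called genes are 9.68% of those tested, beside 1.11% of all tested genes called higher. Called lower were 0 of the 31, beside 0.743% of all tested genes. With upper-quartile scaling, which turned the 182 higher and 122 lower calls over all genes into 246 and 88, the count among the 31 was 4 higher and 0 lower. At an unadjusted p under 0.05, 9 genes were higher (29.0%, beside 10.9% of all genes) and 2 were lower (6.45%, beside 9.43%). DESeq2 called 5 higher (16.1%, beside 2.36% of all genes with an adjusted p) and 0 lower (beside 2.95%), and the 2 that edgeR did not call were CDKN2D and E2F8. The group values did not overlap for 18 genes, 12 of them higher in chaetocin (38.7%, beside 26.8% of all tested genes) and 6 lower (19.4%, beside 26.0%). The median log2 fold change was 0.02 over the 31 and 0.01 over all tested genes. In bulk RNA, a changed share of cells in one phase of the cycle and a changed amount of RNA per cell cannot be told apart.

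**Figure D1:**
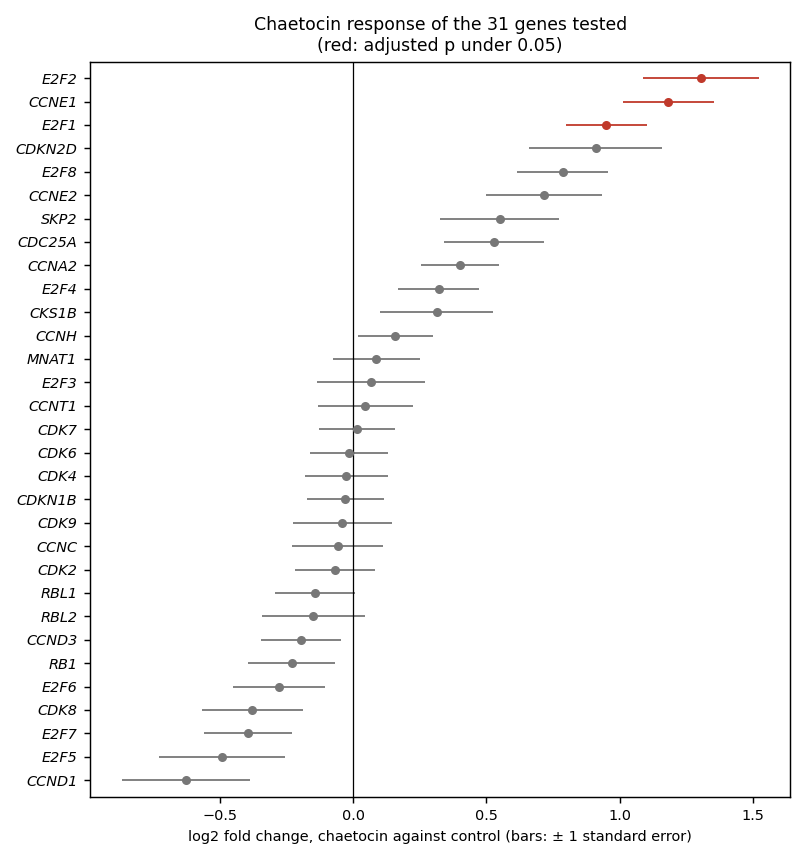
Log2 fold change of chaetocin against control (horizontal axis) for each of the 31 genes tested (vertical axis), with bars of 1 standard error on either side and red for an adjusted p under 0.05. E2F2 (1.30), CCNE1 (1.18) and E2F1 (0.95) stand at the top, and CCND1 (-0.63) at the bottom did not pass the test.

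In untreated U87MG cells, the cell-cycle genes spanned a wide range of levels. To compare genes, each CPM value was divided by the length of the gene's merged exons, which gives CPM per kb. CCND1 (cyclin D1) was the highest at 124 ± 12.4 CPM per kb (SD, n = 2), followed by CDK4 at 76.3, E2F1 at 68.2 and CCNA2 at 32.2 CPM per kb. Each of these 4 was apart from the next in both control samples. CDK2 (31.3 CPM per kb) and E2F7 (29.9 CPM per kb) overlapped each other, and so did E2F7 and CKS1B (25.4 CPM per kb). A long middle part of the order followed, from E2F4 at 22.4 to E2F3 at 3.88 CPM per kb. Of the 20 pairs of neighbours in that stretch, 13 overlapped in the control samples and 7 were apart. E2F2 (1.98), E2F5 (1.95) and CCNE2 (1.69 CPM per kb) were the lowest of the genes tested. Beneath them, CCND2 and CDKN1C lay at 0.0322 and 0.0236 CPM per kb and overlapped. The order depends on the length used. With the longest transcript in place of merged exons, CCND1 (139), CDK4 (116) and E2F1 (68.2 CPM per kb) still led. However, CKS1B (51.03), CDK2 (46.9) and CCNC (45.2 CPM per kb) stood above CCNA2 (32.2 CPM per kb). The means of E2F7 and CDK7 were also above CCNA2, by a small margin. CDK7 (32.6), CCNH (25.3) and CCND3 (17.8 CPM per kb) also moved by more than 1.5 times, as did CDK4, CKS1B and CCNC.

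**Figure D2:**
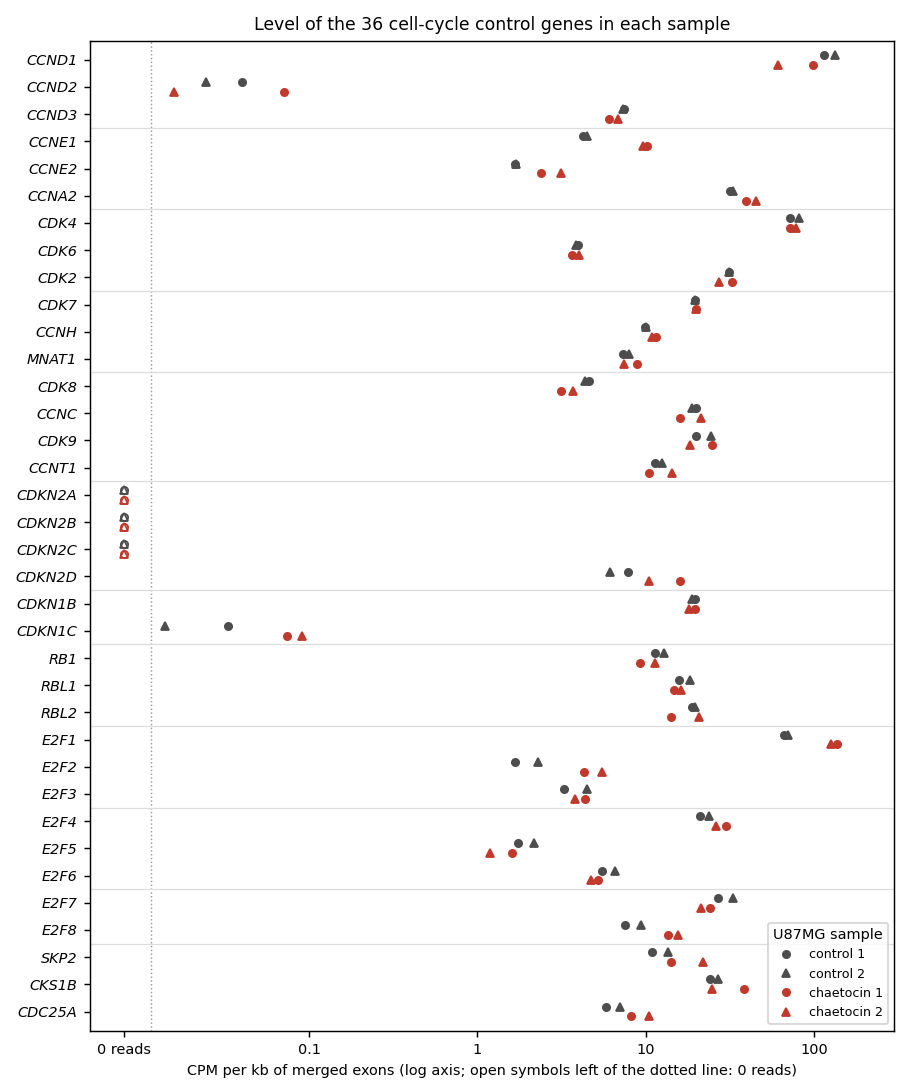
Level of each of the 36 genes in CPM per kb of merged exons (horizontal log axis), ordered by role on the vertical axis, with grey for control and red for chaetocin and a circle or triangle for sample 1 or 2. CDKN2A, CDKN2B and CDKN2C sit at the mark for 0 reads, and the red symbols of CCNE1, E2F1 and E2F2 lie to the right of the grey ones.

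Among the D-type cyclins, which pass growth-factor signals to CDK4 and CDK6, CCND1 was read at 555 and 639 CPM in control and at 479 and 295 CPM in chaetocin. Both chaetocin samples were under both control samples, but they differed from each other more than the control samples did. The log2 fold change of CCND1 was -0.63 with an adjusted p of 0.199 in edgeR, and without chaetocin 1 it was called lower (-1.02, edgeR adjusted p = 0.000593), whereas without chaetocin 2 it was not (-0.33, edgeR adjusted p = 0.210). CCND3 stood at 42.9 and 42.6 CPM in control and at 34.9 and 39.7 CPM in chaetocin (log2 fold change -0.19, edgeR adjusted p = 0.514). CCND2 had 7 and 5 reads in control and 11 and 4 reads in chaetocin, too few to test. By level per kb, CCND1 made up 94.3% ± 0.57 of the summed D-type cyclin level in control and 92.1% ± 3.05 in chaetocin (SD, n = 2), or 88.5% and 84.4% with the length of the longest transcript. A part of CCND1's merged exons, 10.3%, is shared with LTO1 on the opposite strand, and the strand setting of the counting is not given in the sources used here.

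The E-type and A-type cyclins, which act with CDK2, did not overlap between the groups for any of the 3 genes, all with the chaetocin samples on top (beside 26.8% of all tested genes), and 1 of them was called (beside 1.11% called higher). CCNE1, on chromosome 19 (GRCh38, 29811898 to 29824308, plus strand), was read at 10.8 and 11.5 CPM in control and at 26.1 and 24.5 CPM in chaetocin. The samples of each group were close to each other and the groups were far apart. Its log2 fold change was 1.18 ± 0.17 (SE), a 2.27-fold rise, with an adjusted p of 0.0279 in edgeR. CCNE1 stayed called when any sample was left out, with an adjusted p of at most 0.0488 in edgeR. CCNE2, the second E-type cyclin, stood at 7.38 and 7.45 CPM in control and at 10.6 and 13.7 CPM in chaetocin (log2 fold change 0.72, edgeR adjusted p = 0.124), and 37.0% of its merged exons are shared with INTS8 on the opposite strand. CCNA2 (cyclin A2), which acts in S phase and G2, stood at 88.3 and 91.8 CPM in control and at 111 and 127 CPM in chaetocin (log2 fold change 0.40, edgeR adjusted p = 0.178). Without chaetocin 1, CCNE2 and CCNA2 were called as well (log2 fold changes 0.89 and 0.50), and without chaetocin 2 they were not (0.50 and 0.29). Per kb, CCNE1 supplied 11.4% ± 0.19 of the summed level of these 3 cyclins in control and 18.1% ± 2.19 in chaetocin (SD, n = 2), or 13.7% and 21.2% with the length of the longest transcript.

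The kinases themselves gave log2 fold changes close to 0, and none passed the test. CDK4 was read at 227 and 256 CPM in control and at 228 and 248 CPM in chaetocin (log2 fold change -0.02 ± 0.16 SE). CDK6 stood at 48.2 and 46.9 CPM in control and at 44.8 and 49.4 CPM in chaetocin (-0.01 ± 0.15). CDK2 stood at 122 CPM in both control samples and at 126 and 106 CPM in chaetocin (-0.07 ± 0.15). For all 3 the groups overlapped, the edgeR adjusted p lay between 0.846 and 0.969, and the sign of the fold change turned with the scaling. By level per kb, CDK4 made up 68.4% of the summed level of CDK4, CDK6 and CDK2 in control and 69.0% in chaetocin. Of the merged exons of CDK4, 43.2% are shared with TSPAN31 on the opposite strand, the largest such overlap among the 36 genes.

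The CDK-activating kinase, made of CDK7, cyclin H (CCNH) and the assembly factor MNAT1, phosphorylates the other kinases and is also part of the transcription factor TFIIH. CDK7 hardly varied, at 47.4 and 47.5 CPM in control and 47.9 and 48.0 CPM in chaetocin (log2 fold change 0.02 ± 0.14 SE). CCNH stood at 60.4 and 60.7 CPM in control and at 69.4 and 65.8 CPM in chaetocin (0.16 ± 0.14). MNAT1 stood at 28.4 and 30.7 CPM in control and at 34.1 and 28.8 CPM in chaetocin (0.09 ± 0.16). None of the 3 passed the test, with edgeR adjusted p-values from 0.569 to 0.964.

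Kinases and cyclins of transcription gave a similar picture. CDK8, the kinase of the Mediator complex, stood at 16.2 and 15.5 CPM in control and at 11.2 and 13.2 CPM in chaetocin, lower in both chaetocin samples (log2 fold change -0.38, edgeR adjusted p = 0.306). Its partner CCNC (cyclin C) stood at 115 and 108 CPM in control and at 92.4 and 122 CPM in chaetocin, with overlap. CDK9, the kinase of the elongation factor P-TEFb, stood at 59.9 and 72.9 CPM in control and at 74.3 and 55.1 CPM in chaetocin. The P-TEFb cyclin CCNT1 stood at 84.2 and 92.1 CPM in control and at 76.8 and 105 CPM in chaetocin. For these last 3 genes the chaetocin samples lay on either side of the control samples, and the log2 fold changes were between -0.06 and 0.05.

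The INK4 inhibitors fell into 3 genes without a read and 1 expressed gene. CDKN2A (chromosome 9, GRCh38, 21967753 to 21995301, minus strand), which encodes p16 and, from another reading frame, p14ARF, had 0 reads in each of the 4 samples. Its neighbour CDKN2B (22002903 to 22009363, minus strand), the p15 gene, also had 0 reads in each sample. CDKN2C (chromosome 1, 50960745 to 50974633, plus strand), the p18 gene, had 0 reads as well. A count of 0 allows a level of up to 0.0844 to 0.138 CPM, depending on the sample, and no comparison between the groups can be made for these genes.

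The genes around CDKN2A also had few or no reads. Of the 24 protein-coding genes that overlap the 1000 kb on either side of it, CDKN2A and CDKN2B included, 20 had 0 reads, and the highest total over the 4 samples was 22 reads. That gene was MTAP, a purine salvage enzyme and close neighbour of CDKN2A, with 6 and 10 reads in control and 5 and 1 reads in chaetocin. FOCAD had 0, 4, 3 and 1 reads, HACD4 had 2, 2, 0 and 2 reads, and KLHL9 had 0, 1, 0 and 0 reads, in the order control 1, control 2, chaetocin 1 and chaetocin 2. Genes without a read include IFNB1, IFNA1 and the other type I interferon genes of the region, as well as DMRTA1. The antisense RNA CDKN2B-AS1, which shares 7.88% of CDKN2A's merged exons on the opposite strand, had 27 and 33 reads in control and 19 and 33 reads in chaetocin. Farther out on the same chromosome arm, MLLT3 had 0 reads, ELAVL2 had 51 and 81 reads in control and 74 and 136 in chaetocin, and TUSC1 had 163 and 159 reads in control and 196 and 237 in chaetocin. A lost gene and a silent gene cannot be told apart from RNA counts.

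Around CDKN2C, a region that was added after its values were seen, the pattern was mixed. Of 12 protein-coding genes, 5 had 0 reads: CDKN2C, FAF1, DMRTA2, ELAVL4 and C1orf185. On the side of C1orf185, RNF11, at a midpoint distance of 287 kb, had 4988 and 5930 reads in control and 4813 and 8634 in chaetocin, and EPS15, OSBPL9, NRDC and RAB3B beyond it were also expressed. FAF1, at a midpoint distance of -269 kb, is an apoptosis-related gene known for broad expression, and it had 0 reads in each sample.

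**Figure D3:**
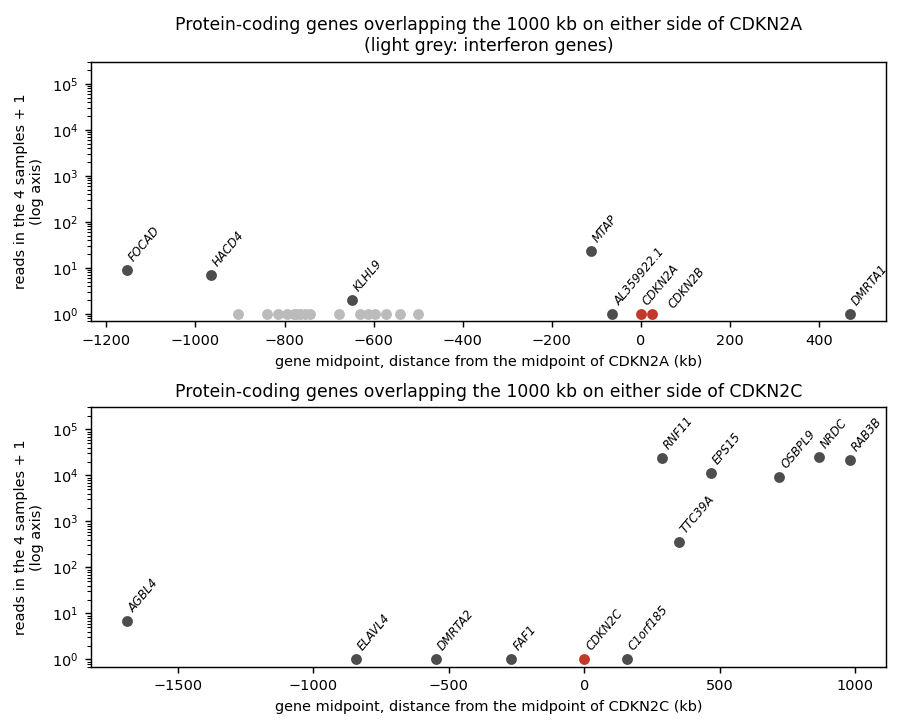
Reads summed over the 4 samples, plus 1 and on a log axis, for the protein-coding genes that overlap the 1000 kb on either side of CDKN2A (upper panel) and CDKN2C (lower panel), against the distance between gene midpoints in kb; red marks the INK4 genes and light grey the interferon genes. No gene in the upper panel exceeds 22 reads, whereas the lower panel holds CDKN2C and its nearest neighbours at 0 and a group of genes with up to 24569 reads to the right.

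CDKN2D, the p19 gene, was the only INK4 gene with reads. It stood at 11.8 and 9.26 CPM in control and at 24.0 and 15.6 CPM in chaetocin. Both chaetocin samples were above both control samples, with a wide gap between the chaetocin samples. The log2 fold change was 0.91 ± 0.25 (SE), with an adjusted p of 0.0978 in edgeR and of 0.0371 in DESeq2, and the edgeR value depended on the sample left out. CDKN2D was called without chaetocin 2 (1.19), and not without chaetocin 1 (0.57), control 1 (1.08) or control 2 (0.73). Of the Cip/Kip inhibitors, CDKN1B (p27) stood at 55.1 and 52.7 CPM in control and at 55.0 and 50.6 CPM in chaetocin (log2 fold change -0.03, edgeR adjusted p = 0.934). CDKN1C (p57) had 2 and 1 reads in control and 4 and 8 reads in chaetocin and was not tested. CDKN1A, the p21 gene, belongs to the same family and was looked at after its values were seen. It stood at 175 and 163 CPM in control and at 209 and 236 CPM in chaetocin (log2 fold change 0.40, edgeR adjusted p = 0.194).

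The RB family members, which hold E2Fs in check, were expressed in every sample and overlapped between the groups. RB1 stood at 73.6 and 82.8 CPM in control and at 59.6 and 73.6 CPM in chaetocin (log2 fold change -0.23, edgeR adjusted p = 0.464). RBL1 (p107) stood at 94.0 and 109 CPM in control and at 87.5 and 96.5 CPM in chaetocin (log2 fold change -0.14, edgeR adjusted p = 0.644). RBL2 (p130) stood at 139 and 145 CPM in control and at 103 and 152 CPM in chaetocin (log2 fold change -0.15, edgeR adjusted p = 0.720). In each of the 3, chaetocin 1 was the lowest sample. Without chaetocin 2, RBL2 was called lower, with a log2 fold change of -0.46, and without chaetocin 1 its log2 fold change was 0.10.

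The activator E2Fs bind E2F motifs and raise transcription of S-phase genes, and 2 of the 3 rose, beside 1.11% of all tested genes called higher. E2F1 (chromosome 20, GRCh38, 33675683 to 33686404, minus strand) was read at 166 and 175 CPM in control and at 345 and 315 CPM in chaetocin. Its log2 fold change was 0.95 ± 0.15 (SE), a 1.93-fold rise, with an adjusted p of 0.0311 in edgeR. E2F2 (chromosome 1, 23506430 to 23531220, minus strand) stood at 9.18 and 12.4 CPM in control and at 23.5 and 29.8 CPM in chaetocin. Its log2 fold change was 1.30 ± 0.22 (SE), a 2.47-fold rise, with an adjusted p of 0.0338 in edgeR. For both genes the groups were apart by more than the spread within them. The calls depended on the control samples. E2F1 had an edgeR adjusted p of 0.144 without control 1 (log2 fold change 0.90) and of 0.106 without control 2 (0.98). E2F2 had an edgeR adjusted p of 0.0573 without control 1 (log2 fold change 1.09) and of 0.00256 without control 2 (1.53). E2F3 stood at 16.9 and 23.1 CPM in control and at 22.5 and 19.6 CPM in chaetocin, with overlap (log2 fold change 0.07, edgeR adjusted p = 0.890).

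**Figure D4:**
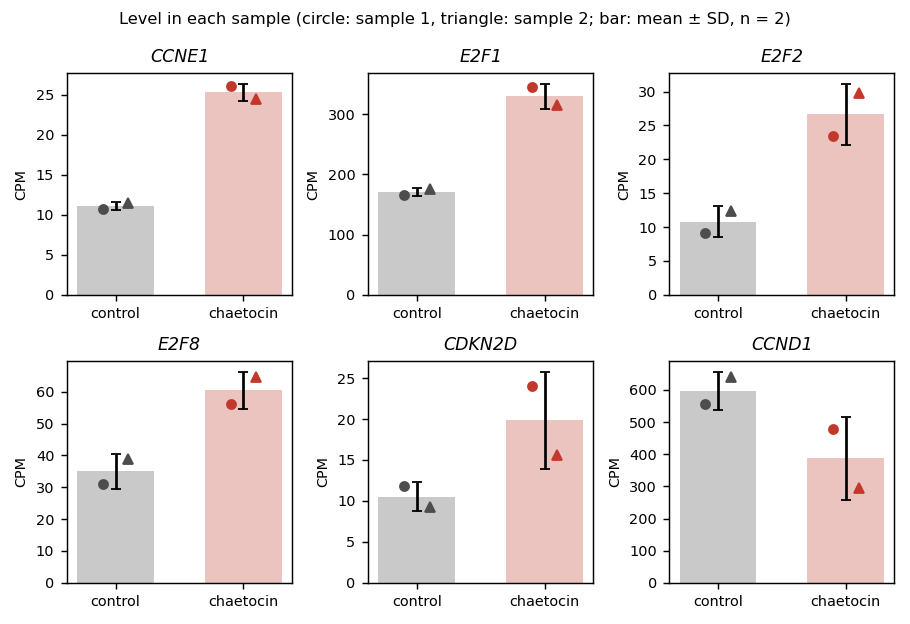
CPM of CCNE1, E2F1, E2F2, E2F8, CDKN2D and CCND1 in each sample (points; circle for sample 1, triangle for sample 2), with bars for the group mean and whiskers for 1 SD, n = 2. The chaetocin points of the first 5 genes lie above the control points and those of CCND1 below, and, as a ratio, the chaetocin samples are farthest from each other in CCND1 (479 and 295 CPM) and CDKN2D (24.0 and 15.6 CPM).

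The E2Fs that act mainly as repressors gave values in both directions, and none passed the test. E2F4 stood at 75.0 and 85.4 CPM in control and at 107 and 93.4 CPM in chaetocin (log2 fold change 0.32, edgeR adjusted p = 0.279). E2F5 stood at 10.3 and 12.8 CPM in control and at 9.51 and 7.01 CPM in chaetocin (log2 fold change -0.49, edgeR adjusted p = 0.291). E2F6, which represses without RB proteins, stood at 22.3 and 26.6 CPM in control and at 21.1 and 19.3 CPM in chaetocin (log2 fold change -0.28, edgeR adjusted p = 0.406). The groups did not overlap for any of the 3, with E2F4 higher and E2F5 and E2F6 lower in chaetocin, beside 26.8% of all tested genes above and 26.0% below. Without chaetocin 1, E2F5 was called lower (log2 fold change -0.72), and without chaetocin 2 it was not (-0.29).

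The atypical E2Fs, E2F7 and E2F8, repress E2F1 and other targets and do not need a dimer partner. E2F8 stood at 31.1 and 38.9 CPM in control and at 56.3 and 64.6 CPM in chaetocin (log2 fold change 0.79 ± 0.17 SE). Its adjusted p was 0.0584 in edgeR and 0.0103 in DESeq2, and edgeR called it without chaetocin 1 (0.88) and without chaetocin 2 (0.67), but not without control 1 (0.62) or control 2 (0.95). E2F7 stood at 169 and 208 CPM in control and at 152 and 135 CPM in chaetocin (log2 fold change -0.39 ± 0.16 SE, edgeR adjusted p = 0.229), and it was called lower without chaetocin 1 (-0.48) and not without chaetocin 2 (-0.32). The log2 ratio of E2F8 to E2F7 was -2.44 and -2.42 in control and -1.43 and -1.06 in chaetocin, a difference of 1.18. With 2 samples against 2, a two-sided exact permutation test cannot go below p = 0.333, so this ratio is given without a call.

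As a family, the 8 E2F genes summed to 143 ± 12.5 CPM per kb in control and to 212 ± 11.7 CPM per kb in chaetocin (SD, n = 2). E2F1 made up 47.9% ± 2.48 of that sum in control and 62.0% ± 0.49 in chaetocin. E2F7 made up 20.9% ± 1.23 of it in control and 10.7% ± 0.30 in chaetocin, and E2F4 made up 15.7% ± 0.06 and 13.2% ± 0.56. E2F2, the gene with the largest log2 fold change of the 31, remained a small part, at 1.38% in control and 2.31% in chaetocin. With the length of the longest transcript in place of merged exons, a choice made after the data were seen, the share of E2F1 was 43.5% in control and 57.4% in chaetocin.

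**Figure D5:**
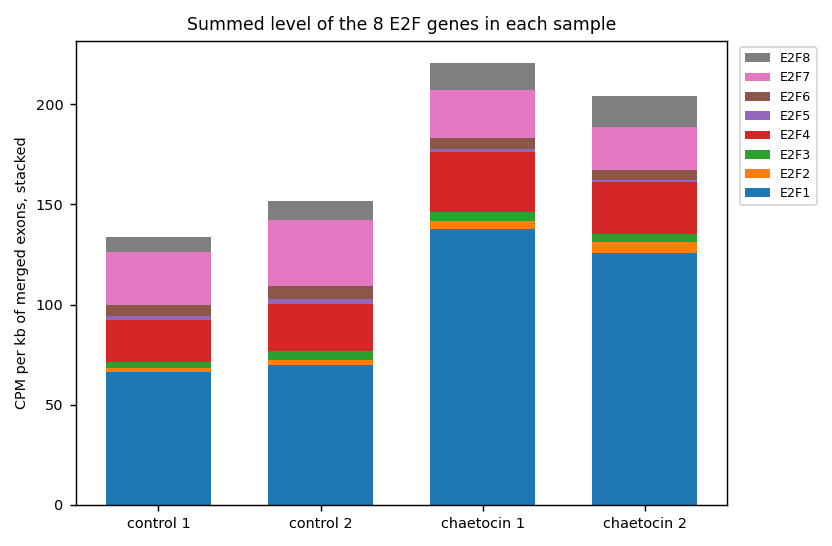
Level of the 8 E2F genes in CPM per kb of merged exons, stacked for each of the 4 samples. The stacks reach 134 and 152 CPM per kb in control and 221 and 204 CPM per kb in chaetocin, and the lowest segment, E2F1, accounts for most of the gain in height.

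Other ratios between members that act together were computed in the same way, 6 in all. The mean log2 ratio of E2F1 to E2F3 was 0.86 higher in chaetocin than in control, and that of E2F2 to E2F3 was 1.22 higher. The log2 ratio of CCNE1 was 1.85 higher to CCND1, 1.21 higher to CDKN1B, the inhibitor of its kinase complex, and 0.48 higher to CCNE2. The numerators are genes that were higher in chaetocin on their own, so these ratios give sizes and are not further evidence of a difference.

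Promoter sequences were inspected because E2F genes and cyclin E are known E2F targets. They were taken from RefSeq windows on GRCh38.p14, from 250 bases before to 50 bases after each start. The letters searched were TTTCCCGC, TTTCGCGC, TTTGCCGC and TTTGGCGC on both strands. Of all 35116 windows, 1164 (3.31%) held a match. The table held 29 of the 36 genes with 40 windows, and 5 windows, 1 for each of 5 genes, had a match. These were E2F1 (2 matches), RBL1 (2 matches), E2F2, E2F3 and CDC25A. Below are the 80 bases before the start in these genes and, since it rose without a match in its window, in CCNE1. Each is written 5′ to 3′ on the strand of the gene, with matches in capitals.
E2F1, chr20:33686386-33686465, minus strand: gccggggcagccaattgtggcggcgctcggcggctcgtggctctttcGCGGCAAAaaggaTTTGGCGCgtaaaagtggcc
E2F2, chr1:23531234-23531313, minus strand: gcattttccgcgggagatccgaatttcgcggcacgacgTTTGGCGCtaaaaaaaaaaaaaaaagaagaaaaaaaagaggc
E2F3, chr6:20401799-20401878, plus strand: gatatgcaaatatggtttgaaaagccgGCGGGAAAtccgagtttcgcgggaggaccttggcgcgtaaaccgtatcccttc
RBL1, chr20:37095998-37096077, minus strand: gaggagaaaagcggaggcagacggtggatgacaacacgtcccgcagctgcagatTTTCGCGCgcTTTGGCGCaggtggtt
CDC25A, chr3:48188418-48188497, minus strand: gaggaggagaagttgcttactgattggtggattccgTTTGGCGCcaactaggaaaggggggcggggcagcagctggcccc
CCNE1, chr19:29811911-29811990, plus strand: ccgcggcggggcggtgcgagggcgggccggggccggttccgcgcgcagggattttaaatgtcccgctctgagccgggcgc

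All matches lay within 53 bases of the start. The motif TTTGGCGC stood on the strand of the gene 20 bases before the start in E2F1 and 42 bases before it in E2F2, the 2 called genes among the 5. The same letters stood on the strand of the gene in 2 genes that were not called, 16 bases before the start in RBL1 and 44 bases before it in CDC25A. The other 3 genes with a match were E2F3, RBL1 and CDC25A, with log2 fold changes of 0.07, -0.14 and 0.53, and none of them passed the test. A match is a description of the letters, not a measured binding site, and its absence says only that these letters are not in the window.

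SKP2 and CKS1B are parts of the ubiquitin ligase that marks p27 for destruction, and CDC25A is the phosphatase that activates CDK2. SKP2 stood at 41.8 and 52.3 CPM in control and at 54.0 and 83.6 CPM in chaetocin (log2 fold change 0.55, edgeR adjusted p = 0.218). The 2 chaetocin samples were above the control samples but far from each other. CKS1B stood at 56.0 and 63.0 CPM in control and at 90.1 and 57.9 CPM in chaetocin, with overlap (0.31, edgeR adjusted p = 0.449). CDC25A stood at 24.0 and 29.1 CPM in control and at 33.5 and 43.1 CPM in chaetocin, without overlap (0.53, edgeR adjusted p = 0.166). Without chaetocin 1, SKP2 (0.83) and CDC25A (0.70) were called higher and CKS1B (-0.04) was not. Without chaetocin 2, CKS1B (0.59) was called higher, and SKP2 (0.19) and CDC25A (0.33) were not.

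Around these genes, 6 lists of related genes, with 95 matched and 90 tested in all, held 2 genes called higher (2.22%, beside 1.11% of all tested genes) and 0 called lower (beside 0.743%) by edgeR. At an unadjusted p under 0.05, 20 were higher (22.2%, beside 10.9% of all tested genes) and 2 lower (2.22%, beside 9.43%), and DESeq2 called 7 higher (7.78%, beside 2.36%) and 0 lower (beside 2.95%). Both calls are known E2F targets with roles in proliferation. MYBL2, a transcription factor that works with the MuvB complex, stood at 53.7 and 52.8 CPM in control and at 118 and 100.4 CPM in chaetocin (log2 fold change 1.04 ± 0.15 SE, edgeR adjusted p = 0.0279). RRM2, a subunit of ribonucleotide reductase, stood at 322 and 323 CPM in control and at 678 and 628 CPM in chaetocin (log2 fold change 1.02 ± 0.16 SE, edgeR adjusted p = 0.0311). Without control 1 and without control 2, RRM2 had edgeR adjusted p-values of 0.0993 and 0.145, and MYBL2 stayed called. Over the 25 E2F target genes of DNA synthesis, 1 was called (4.0%, beside 1.11% of all tested genes), and 20 had a log2 fold change above 0 (beside 50.9% of all tested genes), with a median of 0.19. Both chaetocin samples were above both control samples for 15 of the 25 and below for 2, beside 26.8% and 26.0% of all tested genes. The 11 E2F partners and MuvB genes, 10 of them tested, included 1 call (10.0%, beside 1.11% of all tested genes) and had a median of 0.22.

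The remaining 4 lists held no gene called by edgeR among 55 tested. At an unadjusted p under 0.05, 12 were higher (21.8%, beside 10.9% of all tested genes) and 2 lower (3.64%, beside 9.43%). DESeq2 called 5 higher (9.09%, beside 2.36%), CDK1, CDK5, CCNG2, CDC25C and CKS2, with adjusted p-values from 0.0105 to 0.0468. Of the 15 other cyclins, 14 were tested, with a median log2 fold change of 0.19, and the largest values were those of CCNB3 (1.45) and CCNO (0.81). CCNB3 was read 7 and 5 times in control and 8 and 30 times in chaetocin, so its value rests on few reads and on chaetocin 2. Of the 15 other CDKs, 13 were tested, with a median of 0.07, and CDK18 (2.52) and CDK5 (0.70) were largest. CDK18 was read 7 and 4 times in control and 11 and 66 times in chaetocin, so that value rests on chaetocin 2. Of the 14 further inhibitors, phosphatases, kinases and ubiquitin ligase parts, all tested, 12 had a log2 fold change above 0 (median 0.19), led by CDC25C (0.73) and PKMYT1 (0.72). Of the 15 TFIIH, Mediator and P-TEFb partners, 14 were tested, with a median of -0.09, and ERCC2 (-0.60) and MED13L (-0.37) were farthest from 0. Of the genes named from these 4 lists, CDK1, CCNG2 and CKS2 were named for their DESeq2 calls, after their values were seen, and the others are the 2 of each list with the largest log2 fold changes in size.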

How the data were processed

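U87MG RNA was sequenced as single-end reads of 50 bp from poly(A)-selected libraries made with 15 cycles of PCR. For every sample, the authors deposited 1 table of read counts on genes, in whole numbers and not normalized. The submitters' processing notes name cutadapt, TopHat2, TopHat and SAMtools and the build GRCh37, and the study's methods name DESeq2. The counting tool, the annotation and the strand setting are not given in the sources used here. The tables list Ensembl identifiers without coordinates, and GENCODE release 29 on GRCh38, which held 52338 of the 57905 identifiers, gave symbols, positions and exon lengths.

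Samples were grouped by their labels. Counts were tested in R 4.3.3 with edgeR 4.0.16 (filterByExpr with a minimum count of 10, TMM factors, robust quasi-likelihood fit, no block) and Benjamini-Hochberg adjustment over 16416 genes at a threshold of 0.05. The standard error of a fold change was computed from its F statistic. The common biological coefficient of variation was 16.8%. The procedure was tested on simulated data. Totals of 21241984 to 32590479 reads set the floor of 3 reads quoted for absent genes. Alternatives were RLE and upper-quartile factors, no filter, at least 10 counts in every sample, DESeq2 1.42.0, a replicate block, leaving out each sample, the length of the longest transcript and, added after the data were seen, an unadjusted threshold and family shares by that length. Promoters were those of RefSeq on GRCh38.p14.

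The 36 genes and all lists were chosen with earlier results of these data known. Named besides the 36 were the called genes of each list (at most 6) or, with none called, the 2 with the largest log2 fold change in size, and all genes of the list around CDKN2A. CDKN1A, CDK1, CCNG2, CKS2, the neighbours of CDKN2C and the marker genes that edgeR did not call were added after their values were seen. UHRF1 and PECAM1 matched no counted identifier, and a marker gene is not reported here.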

Additional observations from a re-analysis of the deposited data

How the results depend on the processing

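The log2 fold changes of CCNE1, E2F1 and E2F2 stayed above 0 under every alternative run, and all 3 were called with RLE or upper-quartile factors, with or without a filter, by DESeq2 and with a replicate block. Without the filter on low counts, 787 of 31692 genes were called higher and 759 lower. Of them, 5 and 1 were among the 36, and 10 of the pathway lists were higher. With at least 10 counts in every sample there were 114 and 80 of 14486. DESeq2 called 385 and 481, with 5 of the 36 and 7 of the pathway lists higher. The samples share replicate numbers, but the labels give no common origin. The log CPM difference between samples 1 and 2 of control correlated at r = 0.12 across genes with that of chaetocin. With 2 pairs, this does not settle whether same-numbered samples share an origin, so the numbers were not used as pairs. With the replicate block, 1036 of 16416 genes were higher and 1053 lower, including 8 and 1 of the 36. Added were CCNE2, CDKN2D, E2F8, SKP2 and CDC25A as higher and CCND1 as lower. Of the pathway lists, 14 and 1 were called. Counts among the 36 are to be read beside the totals over all genes, which differ between settings. At an unadjusted p under 0.05 the counts were 1791 and 1548, and 9 and 2 among the 36. Leaving out each sample in turn, where the lone sample of a group is assumed to vary like the others, gave 215 to 1332 higher and 97 to 1673 lower genes, 1 to 8 and 0 to 3 of the 36, and 1 to 17 and 0 to 3 of the pathway lists. Without control 1 only CCNE1 of the 36 was called, without control 2 CCNE1 and E2F2, and without chaetocin 1 CCND1, E2F5 and E2F7 were lower. The cause of these shifts was not tested.

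Among the 36, the sign turned under some alternative only in genes whose main log2 fold change was at most 0.31 in size. With upper-quartile factors, which raised the median of all genes to 0.08, CDK4 was at 0.053, CDK6 at 0.063, CDK2 at 0.0086, CCNC at 0.020, CDK9 at 0.037 and CDKN1B at 0.046. With at least 10 counts per sample CDK6 was at 0.0083, and CDK7 was at -0.0043 without a filter and at -0.0010 in DESeq2. Without single samples the log2 fold change ran from -0.12 to 0.055 for CDK4, from -0.094 to 0.057 for CDK6, from -0.19 to 0.043 for CDK2, from -0.036 to 0.20 for MNAT1, from -0.28 to 0.13 for CCNC, from -0.27 to 0.15 for CDK9, from -0.21 to 0.26 for CCNT1, from -0.088 to 0.023 for CDKN1B, from -0.46 to 0.10 for RBL2, from -0.15 to 0.30 for E2F3 and from -0.036 to 0.59 for CKS1B.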

Other observations

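The spread between samples of one group was as large as the difference between groups for many of these genes. For 15 of the 31 genes tested, the larger of the replicate differences in log2 CPM exceeded the difference between the group means. The chaetocin samples differed from each other more than the control samples did in 23 of 31 genes, among them CCND1, CDKN2D and SKP2. Control 2 was above control 1 in 24 of the 31, and chaetocin 2 was above chaetocin 1 in 16.

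Processed copies of these genes took few reads. For 10 of the 36 genes, 20 named pseudogene copies were among the genes counted, and 15 of the copies had no read. The highest count of a copy in a sample was 13, in E2F3P2, and the parent gene E2F3 had 413 to 695 reads per sample.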
